A study of Mus musculus with 5 samples.

Results

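The genes described are 10 Kruppel-like factors, Klf2, Klf3, Klf4, Klf5, Klf6, Klf7, Klf9, Klf10, Klf13 and Klf15, among the 16992 gene symbols common to the deposited expression tables. They were selected by symbol, on results of the group comparison below in which the lower level of Klf4 was already known. The group values of the 10 members are therefore a description, and no p-value is given for them. The tables hold RNA sequencing of cells sorted fresh from the pancreas of adult C57BL/6 mice aged 2 to 4 months. One group is CD133(positive)CD71(negative) cells (n = 2 libraries) and the other is CD133(high)CD71(low) cells (n = 3 libraries), which a second label calls positive for both markers. CD133 is the surface protein made from Prom1 and CD71 is the transferrin receptor made from Tfrc. The third CD133(high)CD71(low) library has no number in its title and is called library 3. Nothing in the labels says whether libraries came from separate mice or sorts, so any spread between them may be technical.

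Kruppel-like factors are transcription factors with zinc fingers at the carboxyl end that bind GC-rich DNA and the CACCC box. The family is split by what lies outside the fingers: Klf2, Klf4, Klf5, Klf6 and Klf7 mostly activate genes, Klf3 recruits the corepressor CtBP, and Klf9, Klf10 and Klf13 can recruit Sin3A. Klf2 is the flow-induced factor of endothelium and a quiescence factor of lymphocytes. Klf4 is made in differentiating epithelia, endothelium and monocytes and is one of the reprogramming factors of pluripotent stem cells. Klf5 is a factor of dividing epithelial cells. The comparison asks whether Klf4 differed between the sorted groups in the way of endothelial Klf2 or of epithelial Klf5.

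Values are RPKM, in which reads are divided by transcript length and by the depth of the library, a unit inferred from the values. Depth, inferred from the steps between low values and not stated in the labels, came to 19800000 to 41700000 reads per library. Library 3 was deposited with other gene models (22522 symbols against 18618 in each numbered table), so differences of members that rest on it are given with and without it. Prom1 measured 45.8 and 48.8 in CD133(positive)CD71(negative) and 72.8, 74.7 and 133 in CD133(high)CD71(low), and Tfrc 4.00 and 4.36 against 5.34, 6.84 and 12.2. Neither sorting marker passed the test over the 5 libraries (limma adjusted p = 0.0909 and 0.151). A difference is the mean log2(RPKM + 1) of CD133(high)CD71(low) less that of the other group, a scale that understates the change of low genes. They come from limma fitted to all 11769 genes with a mean of at least 1, and a gene is called at a Benjamini-Hochberg adjusted p under 0.05. The median difference of all genes was 0.31, and median-of-ratios scaling moved it to 0.016. Of all calls 46.4% were higher in CD133(high)CD71(low), against 16.6% with that scaling and 33.1% when acinar genes were removed and the rest rescaled. Without library 3 the balance turned, and 77.1% of the calls were higher.

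Of the 10 Kruppel-like factors, Klf2 and Klf4 were called lower in CD133(high)CD71(low), Klf5 was called higher, and the other 7 were not called. That is 3 of 10, where 13.5% of all genes tested were called. It is 1 of 10 higher against 6.25%, and 2 of 10 lower against 7.22%. Nothing is read from these counts, since the members were chosen with this contrast known. The groups did not overlap for 8 of the 10, and for 70.2% of all genes tested. The median difference of the 10 was 0.08, below the median of all genes. Without library 3 the called members were 4, Klf15 being added, where 53.1% of all genes were called. All 10 passed the filter on low values.

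**Figure D1:**
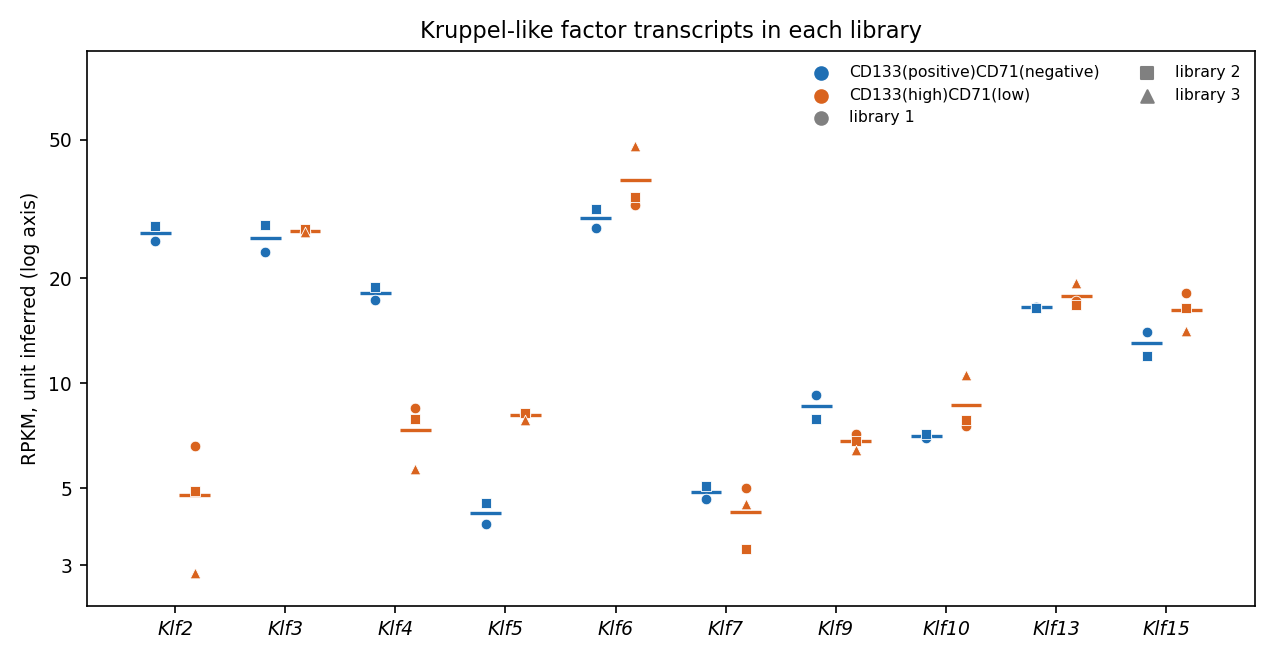
RPKM of the 10 members in each library on a log axis, with points for single libraries (circle, library 1; square, library 2; triangle, library 3) and short lines for group means. Klf2 and Klf4 are lower and Klf5 is higher in every CD133(high)CD71(low) library than in both others, and for Klf2 library 3 is the lowest, at 2.85.

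The order of levels, which RPKM allows because it is scaled by length, differed most at Klf2. In CD133(positive)CD71(negative) cells Klf6 was highest (29.8 ± 2.68, SD, n = 2), followed by Klf2 (27.0 ± 1.83) and Klf3 (26.1 ± 3.30), and the ranges of these 3 overlapped. Below them came Klf4, Klf13, Klf15, Klf9, Klf10, Klf7 and Klf5, each of whose ranges lay apart from the next. In CD133(high)CD71(low) cells Klf6 (38.3 ± 8.51, SD, n = 3) and Klf3 (27.3 ± 0.307) led, and Klf13 and Klf15 followed with ranges that overlapped. Klf10, Klf5, Klf4, Klf9, Klf2 and Klf7 formed a lower block in which each range overlapped the next. The 10 genes summed to 150.2 and 160.4 RPKM in CD133(positive)CD71(negative) and to 138, 134 and 147 in CD133(high)CD71(low). Klf2 made up 17.1% and 17.6% of that sum in the first group and 4.79%, 3.66% and 1.95% in the second.

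Klf2 showed the largest difference of the 10. Its gene (ENSMUSG00000055148.7) lies on chromosome 8 from 72319033 to 72321656, plus strand, in mm10. Its values were 25.7 and 28.3 in CD133(positive)CD71(negative) cells, against 6.61, 4.90 and 2.85 in libraries 1, 2 and 3 of CD133(high)CD71(low). Both CD133(positive)CD71(negative) values stood far above the others and the groups did not overlap. The group mean was 5.63 times lower in CD133(high)CD71(low), a log2 difference of -2.33 (SE 0.30). Fewer cells of a type and less RNA per cell cannot be told apart in such sorted bulk samples. Klf4 (ENSMUSG00000003032.8), on chromosome 4 from 55527143 to 55532466, minus strand, measured 17.4 and 18.9 against 8.48, 7.90 and 5.67. Again all CD133(high)CD71(low) libraries lay below both others, but the gap was narrower, 18.2 ± 1.10 against 7.35 ± 1.48, or 2.47 times. The log2 difference was -1.21 (SE 0.19). Without library 3 the differences were -2.06 for Klf2 and -1.06 for Klf4, and both were called. Klf4 was no longer called without CD133(high)CD71(low) library 2, and neither gene was called when either CD133(positive)CD71(negative) library was left out, which left that group with 1 library.

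The stretches before the RefSeq starts of the 2 lowered genes are shown because MEF2 factors, which act on Klf2 and Klf4 in endothelium, are among the genes measured. Both are 250 bases, 5′ to 3′ on the gene's strand, from RefSeq on GRCm38.p6 (mm10), chr8:72318812-72319061 (plus) for Klf2 and chr4:55532476-55532725 (minus) for Klf4. Capitals mark matches, on either strand, to TGACG (the core of a cAMP response element), to the MEF2 site and to CACCC; matches to GGGCGG are left in lower case.
Klf2: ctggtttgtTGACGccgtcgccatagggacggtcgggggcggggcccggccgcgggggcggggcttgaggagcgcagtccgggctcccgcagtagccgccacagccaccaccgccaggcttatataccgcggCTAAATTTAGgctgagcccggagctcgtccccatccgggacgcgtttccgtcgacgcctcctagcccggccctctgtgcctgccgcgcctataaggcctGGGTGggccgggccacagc
Klf4: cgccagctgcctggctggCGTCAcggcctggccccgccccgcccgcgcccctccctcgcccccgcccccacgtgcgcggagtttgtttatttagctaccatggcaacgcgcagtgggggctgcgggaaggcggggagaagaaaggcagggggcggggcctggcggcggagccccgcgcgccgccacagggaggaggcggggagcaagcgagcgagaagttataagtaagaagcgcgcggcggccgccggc
The Klf2 stretch held 1 MEF2 site match, from -118 to -109 counted from the RefSeq start, 1 TGACG from -241 and 1 CACCC (on the other strand) from -19. The RefSeq start of Klf2 lies inside the gene as GENCODE places it, from 72319033. The CACCC match thus falls within that gene. The Klf4 stretch held 1 TGACG (on the other strand) from -232 and no match to the MEF2 letters or to CACCC. Of 32851 RefSeq promoter stretches of this length 2.92% held a MEF2 match, 17.8% TGACG and 52.0% CACCC. A match in letters is a description and not a binding site, and no match says only that the letters are absent from the stretch.

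Klf5 went the other way. Its gene (ENSMUSG00000005148.8), on chromosome 14 from 99298691 to 99315036, plus strand, measured 3.93 and 4.53 in CD133(positive)CD71(negative) and 8.17, 8.22 and 7.86 in CD133(high)CD71(low). The 3 CD133(high)CD71(low) values were nearly level, the highest being 1.05 times the lowest, and all lay above both others. The means were 4.23 ± 0.422 (SD, n = 2) and 8.08 ± 0.198 (SD, n = 3), 1.91 times as high, with a log2 difference of 0.80 (SE 0.12). This rise was smaller once the general shift was taken out. It was 0.51 and not called with median-of-ratios scaling, but 0.62 with quantile normalization and 0.67 with acinar genes removed, and called in both. Without library 3 it was 0.82 and called. It was also not called when any library other than library 3 was left out.

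**Figure D2:**
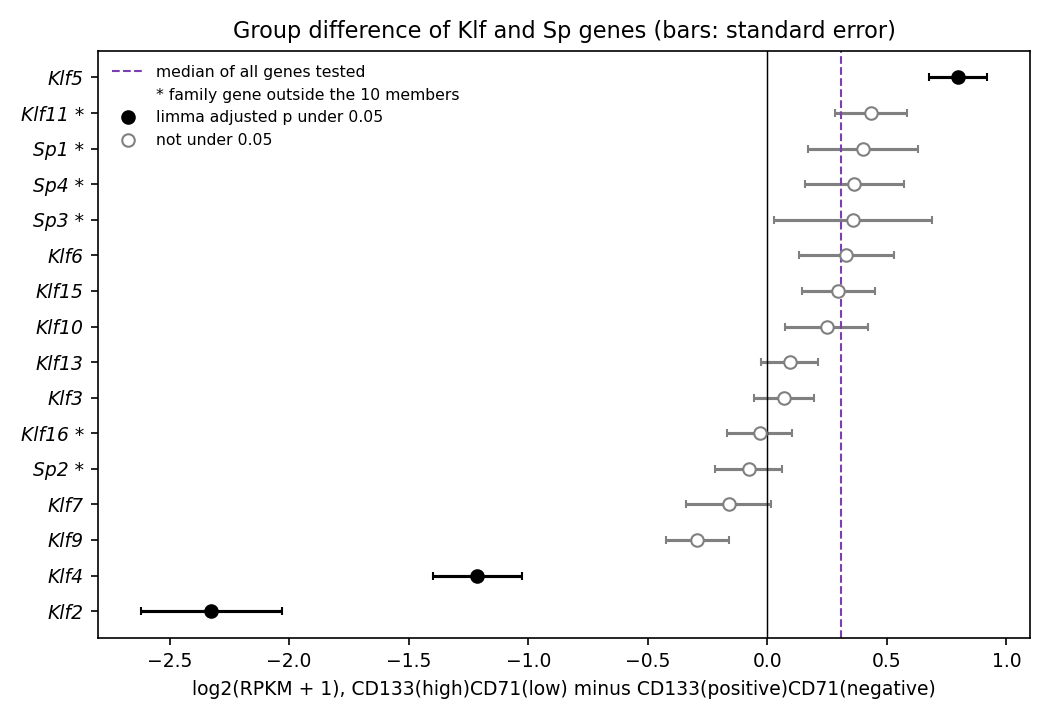
Group difference on the log2(RPKM + 1) scale with its standard error for the 10 members and 6 further Klf and Sp genes (starred) that could be tested; filled points are called by limma and the dashed line is the median of all genes, 0.31. Klf2 at -2.33 and Klf4 at -1.21 stand apart on the left and Klf5 at 0.80 on the right.

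Ratios of RPKM within a library do not depend on how that library was scaled, though differences on the log2(RPKM + 1) scale do, and the ratios set Klf4 between Klf2 and Klf5. The ratio of Klf4 to Klf2 was 0.677 and 0.670 in CD133(positive)CD71(negative) and 1.28, 1.61 and 1.99 in CD133(high)CD71(low). Klf4 was thus below Klf2 in both libraries of the first group and above it in all 3 of the second. The ratio of Klf4 to Klf5 was 4.42 and 4.18 against 1.04, 0.960 and 0.722. Klf4 had the direction of Klf2 and not of Klf5, but a smaller difference than Klf2. On the log2(RPKM + 1) scale the Klf4 to Klf2 ratio was 1.11 higher and the Klf4 to Klf5 ratio 2.01 lower (log2 difference -2.01) in CD133(high)CD71(low). These and the ratios below are from 15 that were computed, not all of which are printed. They use the levels on which the members were chosen and are given as a description, with no test.

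Within CD133(high)CD71(low) the members also spread differently. The highest library exceeded the lowest by 2.31 times for Klf2, 1.49 times for Klf4 and 1.05 times for Klf5. Library 1 was highest and library 3 lowest for both Klf2 and Klf4. For Klf4 the spread rested mostly on library 3, libraries 1 and 2 standing at 8.48 and 7.90. The sum of 20 endothelial genes had the same order, at 332, 217 and 148 RPKM, a spread of 2.24 times. This order was not particular to endothelial genes. The leukocyte sum (123, 109 and 80.4, a spread of 1.53 times) and the erythroid sum (123, 118 and 32.4) had it too, as did Klf9 and Klf15. The endothelial sum was 1134 and 1058 in CD133(positive)CD71(negative), 4.72 times the other group's mean. Of its 20 genes 19 were called lower, none was called higher, and the median difference was -2.41, against -2.33 for Klf2 and -1.21 for Klf4. The defining genes Pecam1, Cdh5, Kdr and Tie1 were above 0 in all libraries, Tie1 reaching its lowest value of 2.49 in library 3. Per 1000 RPKM of the endothelial sum, Klf2 measured 22.6 and 26.7 in CD133(positive)CD71(negative) and 19.9, 22.6 and 19.2 in CD133(high)CD71(low). Every CD133(high)CD71(low) ratio lay below both others, library 2 by a narrow margin, with a log2 difference of -0.26. With 1 added to each level before the ratio was taken the groups overlapped and the difference was -0.016. Klf4 per 1000 RPKM of the same sum measured 15.3 and 17.9 against 25.6, 36.4 and 38.3, so that it was higher relative to the endothelial genes in every CD133(high)CD71(low) library. The log2 difference was 0.99, and 1.10 with 1 added to each level.

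Other cell type lists moved between the same groups. The leukocyte list (19 genes in the tables) summed to 1678 to 1708 RPKM in CD133(positive)CD71(negative) and to 80.4 to 123 in CD133(high)CD71(low), with 16 of 18 tested genes called lower and 1, Cd14, called higher. Its defining genes Ptprc, Laptm5 and Coro1a were lower in that group but above 0 in every library. Per 1000 RPKM of the leukocyte sum, Klf4 measured 10.2 and 11.3 against 68.9, 72.6 and 70.6. Klf2 measured 15.0 and 16.8 against 53.7, 45.1 and 35.5 on that sum. Cd14 itself measured 19.4 and 21.3 against 37.6, 35.5 and 35.2, a large part of the leukocyte sum in CD133(high)CD71(low). Both ratios in that group are therefore lower than they would be without Cd14. The mesenchymal list (18 genes) summed to 402 to 421 against 170 to 187, with 8 of 14 called lower and 0 higher. Its defining genes Col1a1, Pdgfra and Pdgfrb were above 0 throughout but low. Col1a1, which was called lower, measured 5.90 and 5.33 against 0.785, 0.903 and 0.131. Pdgfra measured 0.598 and 0.461 against 0.129, 0.217 and 0.0363. Pdgfrb measured 1.34 and 1.13 against 1.29, 0.994 and 0.181, with overlapping groups. Pdgfra and Pdgfrb lay under the filter and were not tested. Most of the mesenchymal sum thus came from list genes other than the defining ones, Fn1 among them (42.8 and 40.6 against 8.30, 6.69 and 3.85). Ratios to this sum are therefore not ratios to the defining genes. Per 1000 RPKM of the mesenchymal sum, Klf4 measured 41.3 and 47.1 against 45.4, 46.5 and 32.2, and the groups overlapped. The difference was -0.01 on the log2(RPKM + 1) scale. Klf2 on the mesenchymal sum measured 61.0 and 70.4 against 35.4, 28.9 and 16.2. The duct list (20 genes, Krt19, Sox9, Epcam and Cdh1 among them) summed to 3635 to 3873 against 5278 to 7427, with 14 of 19 called higher, 0 lower and a median of 0.81, beside 0.80 for Klf5. Per 1000 RPKM of the duct sum, Klf5 measured 1.08 and 1.17 against 1.55, 1.56 and 1.06. The groups overlapped through library 3 alone, and without it the difference on the log2(RPKM + 1) scale was 0.32 in place of 0.14. The endocrine, Schwann and erythroid lists also held called genes, the erythroid list summing to 13.5 to 14.1 against 32.4 to 123, and the acinar sum was 123498 in library 3, where the other 4 libraries held 257142 to 309648. The part of these cell types in the Klf2, Klf4 and Klf5 differences was not tested.

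**Figure D3:**
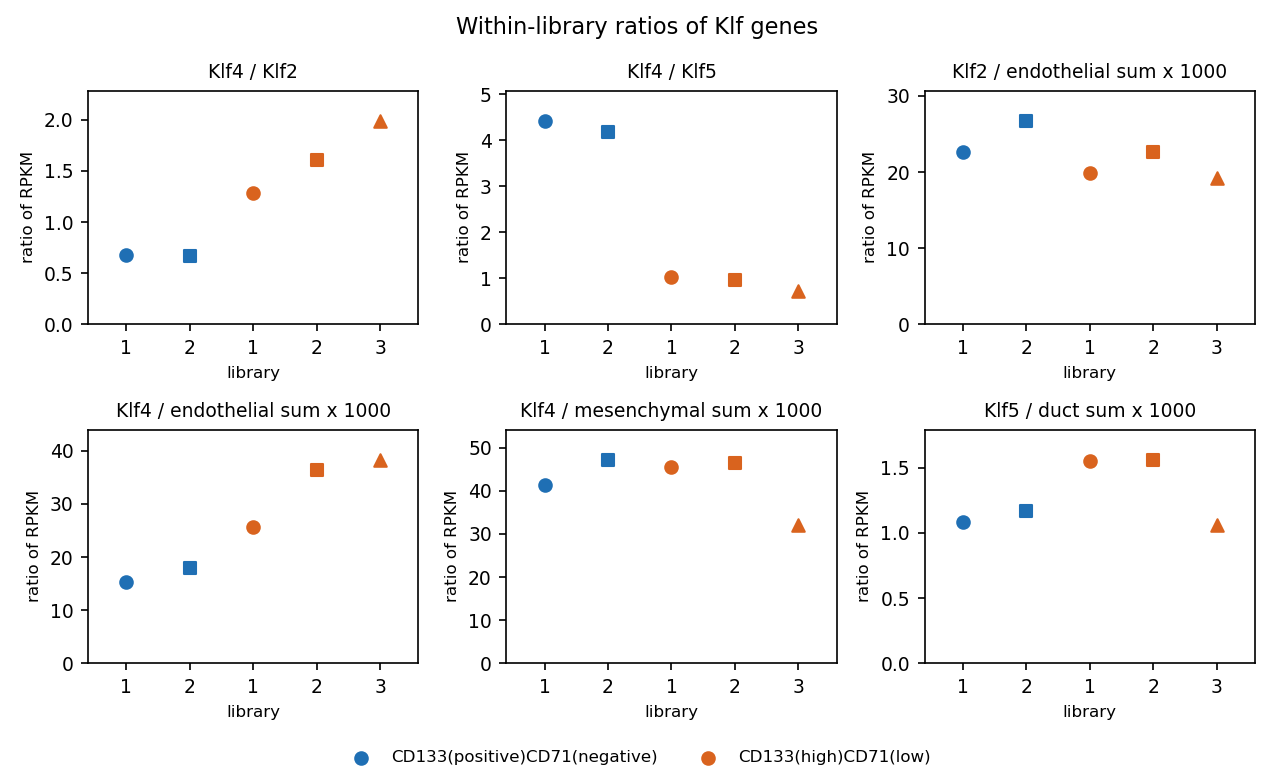
Ratios of RPKM within each library, on axes from 0, for Klf4 to Klf2, Klf4 to Klf5, Klf2 and Klf4 to the endothelial sum, Klf4 to the mesenchymal sum and Klf5 to the duct sum (the last 4 times 1000). Klf4 to Klf2 climbs from below 0.68 to above 1.28 between groups, whereas Klf2 to the endothelial sum lies between 19.2 and 26.7 in all 5 libraries.

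**Figure D4:**
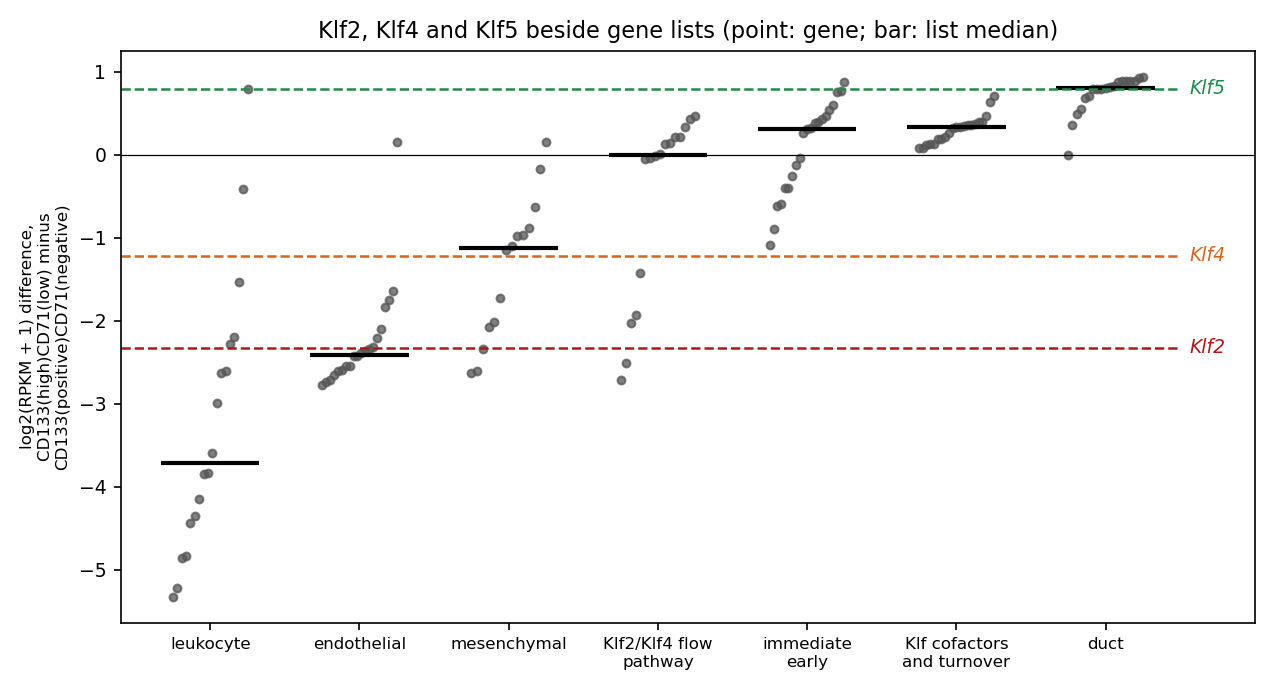
Log2(RPKM + 1) difference of each tested gene in 7 lists, with the list median as a bar and Klf2, Klf4 and Klf5 as dashed lines. The Klf2 line runs through the endothelial points (median -2.41), the mesenchymal points spread from -2.63 to 0.16 on both sides of the Klf4 line, and the Klf5 line lies near the duct median (0.81).

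The genes nearest to each of the 3 members were sought by the Euclidean distance between centred log2(RPKM + 1) profiles over the 5 libraries, among 7770 other genes with a mean of at least 5. For Klf2 they were Gata2, a transcription factor of blood and endothelium, Cyyr1, the endothelial factor gene Sox17, the fatty acid receptor gene Cd36 and Ecm1 (distances 0.11 to 0.20). Gata2 measured 13.6 and 15.9 against 3.37, 2.26 and 1.04. For Klf4 they were Dock6, the actin-severing gelsolin gene Gsn, the basement membrane collagen gene Col4a2, the adaptor gene Sh2b3 and the TGF-beta receptor gene Tgfbr2 (0.14 to 0.23). Dock6 measured 14.5 and 15.4 against 7.78, 6.39 and 4.58. For Klf5 they included the membrane metalloproteinase gene Mmp14, the phosphatase gene Ptpn13, Cd14 and the ezrin gene Ezr (0.051 to 0.069). Mmp14 measured 24.0 and 26.2 against 43.4, 44.4 and 43.3. Klf2 ranked 618 in nearness to Klf4 at a distance of 1.26, and Klf5 ranked 6710 at 2.23. These distances are taken over the same libraries as the group difference and are a description.

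The remaining 7 members were not called. Among the activators, Klf6, which is induced early after injury, was the highest member in both groups, with 27.9 and 31.7 in CD133(positive)CD71(negative) and 32.5, 34.3 and 48.0 in CD133(high)CD71(low). Its groups lay apart by a narrow margin and library 3 stood well above the others. The log2 difference was 0.33 (SE 0.20) and 0.16 without library 3. Klf7, known from neurons, measured 4.67 and 5.06 against 5.004, 3.35 and 4.50, with overlapping groups. Klf15, a regulator of glucose and amino acid metabolism, measured 14.1 and 12.0 against 18.2, 16.4 and 14.1 (log2 difference 0.30, SE 0.15). Its lowest CD133(high)CD71(low) value was library 3, and without it Klf15 was called, with a difference of 0.39.

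Among the repressors, Klf3 had nearly equal group means but a wide spread between the CD133(positive)CD71(negative) libraries. It measured 23.7 and 28.4 against 27.1, 27.7 and 27.2, so that the CD133(high)CD71(low) values lay between the other 2. Klf13, known from T cells, measured 16.6 and 16.5 against 17.2, 16.7 and 19.4. Klf9, induced by glucocorticoid and thyroid hormone, measured 9.28 and 7.88 against 7.16, 6.81 and 6.45, lower without overlap. Its log2 difference of -0.29 (SE 0.13) was not called. Under median-of-ratios scaling of the 4 numbered libraries it was called, at -0.46, where 3568 of 11713 genes were called. It was not called with that scaling of all 5 libraries (-0.60) or without library 3 (-0.26). Klf10, induced early by TGF-beta, measured 6.95 and 7.15 against 7.53, 7.85 and 10.6, and library 3 was again the highest. Its log2 difference was 0.25, and 0.11 without library 3. For Klf3, Klf6, Klf10, Klf13 and Klf15 the sign of the difference turned under median-of-ratios scaling. GENCODE M21 places genes on the opposite strand over Klf3, Klf7 and Klf13, and since no strand setting is given in the sources used here, their reads cannot be told apart.

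Of 16 further family genes listed, 13 were in all 5 tables and 6 had a mean of at least 1. Limma called 0 of these 6, where 13.5% of all genes tested were called. At an unadjusted p under 0.05 there was 1, Klf11, a TGF-beta-inducible factor linked to diabetes. It measured 7.55 and 9.14 against 10.4, 11.7 and 12.8 (limma adjusted p = 0.106). Without library 3 its limma adjusted p was 0.0190, in a fit that called 53.1% of all genes. The log2 difference of Klf11 was 0.43, and 0.12 with median-of-ratios scaling. Klf16, Sp1, Sp2, Sp3 and Sp4 had differences from -0.08 (Sp2) to 0.40 (Sp1). Without library 3 the difference of Sp1 was 0.19, that of Sp4 0.20 in place of 0.36, and that of Sp3 0.033 in place of 0.36. For the broadly made Sp3 the value in library 3 was 23.2, where the other 4 libraries held 10.4 to 11.9. Klf12, a repressor of the same CtBP-binding kind as Klf3, lay under the filter, at 1.25 and 1.27 against 0.409, 0.215 and 0.167. Its mean was 4.78 times lower in CD133(high)CD71(low), and with no filter on low values it was called (log2 difference -0.84, limma adjusted p = 0.00776). Klf8 measured 0.273 and 0.486 against 0.0981, 0.0945 and 0.151. The erythroid factor gene Klf1 stayed at or below 0.232 in every library.

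In endothelium Klf2 and Klf4 lie downstream of a kinase chain from Map3k3 through Map2k5 to Mapk7 and of MEF2 factors, and they act on genes such as Nos3 (nitric oxide synthase) and Thbd (thrombomodulin). Of 16 tested genes in a list of this pathway 5 were called lower and 0 higher, with a median of 0.00 against 0.31 for all genes. Over all genes tested 7.22% were called lower and 6.25% higher. The 5 were Mef2c, Nos3, Thbd, the sphingosine phosphate receptor gene S1pr1 and Heg1, a partner of the CCM complex. Thbd measured 26.1 and 24.3 against 5.02, 3.14 and 1.57 (log2 difference -2.71, limma adjusted p = 0.00908). Nos3 measured 11.6 and 11.2 against 3.10, 2.02 and 1.30 (-2.02, limma adjusted p = 0.00796), and Mef2c 2.68 and 2.64 against 0.580, 0.288 and 0.253 (-1.42, limma adjusted p = 0.00396). These target and factor genes were low in the same libraries as Klf2. The endothelial list was lower in those libraries too, with 19 of its 20 genes called lower and a median of -2.41. A link of the pathway genes to Klf2 was not tested. The kinase genes did not pass: Mapk7 measured 6.90 and 6.43 against 6.58, 6.85 and 5.98, Map2k5 4.72 and 5.56 against 6.67, 6.87 and 6.70, and Map3k3 10.8 and 10.2 against 9.29, 9.91 and 11.2. The other MEF2 genes Mef2a and Mef2d did not pass either (-0.01 for Mef2d and 0.13 for Mef2a).

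Klf2, Klf4, Klf6 and Klf10 can also be induced early by stimulation or tissue dissociation. Of 21 tested immediate early genes 1 was called higher and 1 lower, with a median of 0.31, the same as for all genes. Over all genes tested 6.25% were called higher and 7.22% lower. Cyr61 rose from 59.3 and 67.3 to 100.02, 126 and 128 (log2 difference 0.88, limma adjusted p = 0.0241). Ier5, the 1 called lower, fell from 13.1 and 13.95 to 6.11, 7.01 and 4.55 (-1.09, limma adjusted p = 0.0201). Fos, a leading immediate early gene, measured 74.5 and 89.3 against 79.6, 116 and 115, with overlapping groups. For 15 of the 21 the groups did not overlap, beside 70.2% of all genes. Jun measured 109 and 135 against 177, 196 and 253, and Egr1 48.4 and 62.2 against 77.1, 117 and 90.7, higher without overlap but not called (limma adjusted p = 0.0648 and 0.0759). Nr4a1 measured 13.8 and 15.9 against 7.62, 10.4 and 5.26, lower and not called (limma adjusted p = 0.0808). Of 19 glucocorticoid and clock genes, tested because Klf9 and Klf15 respond to glucocorticoid, 1 was called higher and 0 lower: Tsc22d3, at 21.2 and 20.7 against 34.8, 34.7 and 41.2 (limma adjusted p = 0.0176). Of 21 genes for Klf cofactors and turnover, including Ctbp1, Sin3b and the ubiquitin ligase gene Wwp1, limma called 0, with a median of 0.33. The share called over all genes tested was 13.5%. Ctbp1 measured 29.1 and 32.2 against 34.6, 34.0 and 28.8.

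Of the 10 members 8 had a RefSeq promoter entry, Klf5 and Klf10 being the others. The 250 bases before the RefSeq start held 59.2% to 78.4% G and C, where the median over all promoters was 52.4%. For Klf2, Klf3, Klf6 and Klf7 the RefSeq start lies inside the gene as GENCODE places it. GGGCGG, the letters of an Sp-type GC box, were found in 7 of the 8 (32.7% of all promoters) and CACCC in 6 of the 8. Matches of GGGCGG and CACCC share a base in Klf3 and Klf13. TGACG was found in 5 of the 8, among them Klf2 and Klf4. The MEF2 site was found in Klf2 alone of the 8. The CArG box of serum response factor was found in 0 of the 8 (1.47% of all promoters), as was TATAAA (12.4%). Klf2 and Klf4, the lowered members, shared TGACG and GGGCGG, which Klf13 and Klf15 held as well.

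**Figure D5:**
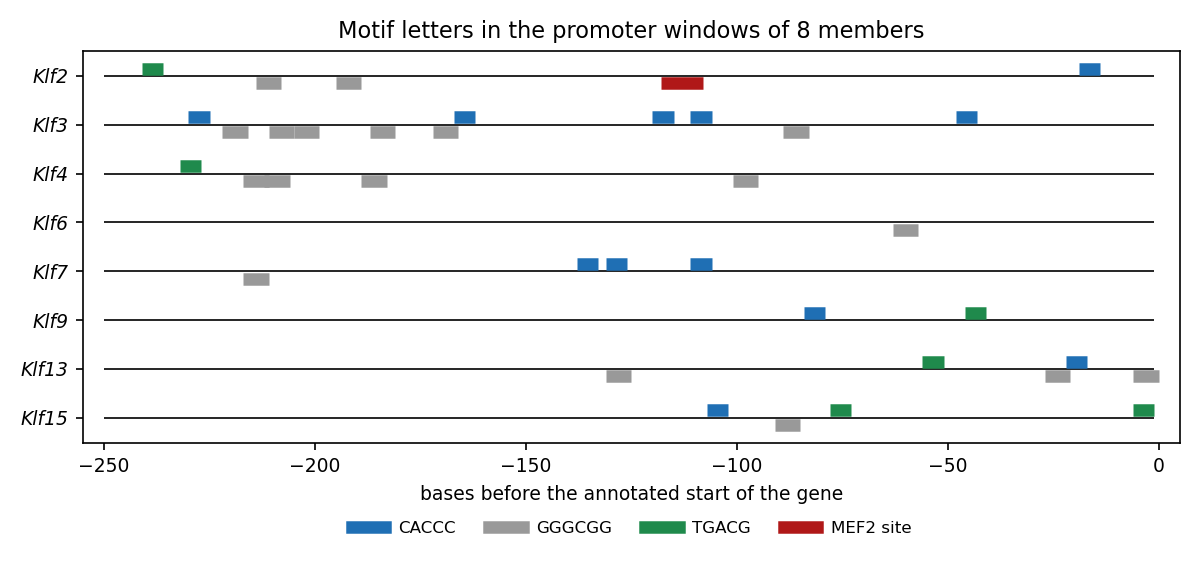
Positions of 4 kinds of motif letters, on either strand, in the 250 bases before the RefSeq start of 8 members, in bases from the start. The MEF2 site match lies in Klf2 at -118, and GGGCGG matches are spread over all but Klf9.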

How the data were processed

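RNA of 5 libraries was analysed from 1 table each with 1 value per gene symbol, deposited by the authors. Per the submitters' processing notes, Partek and mm10 were used, with version, aligner and annotation not given in the sources used here. The unit of the deposited values is not stated and was inferred as RPKM (FPKM cannot be told apart). For low genes with a single GENCODE M21 transcript, value times length fell within 0.05 reads of a whole number in 55.1% to 58.9% of cases (10% by chance), which gave the depths but was too few to recover reads. A row of library 3 that names no gene was left out.

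Values were taken as log2(RPKM + 1) and fitted by group with limma 3.58.1 (trend, R 4.3.3), Benjamini-Hochberg over 11769 genes with a mean of at least 1; the step finder and the fit were tested on simulated data. Members and gene lists were chosen with earlier results of these data known. Named genes were the 10 members, the other family genes in the tables, up to 2 higher and 2 lower called genes with the smallest p per list (the 2 highest where none was called), and the 5 nearest profiles of Klf4, Klf2 and Klf5 (1 is not reported here), predicted and small RNA genes aside; list genes were printed where a result turned on them, and further names were picked with their values in view. Lists were described by counts and medians, with no set test. Endocrine (0 higher and 5 lower of 12), Schwann (0 and 3 of 5), erythroid (3 and 0 of 4) and acinar (0 and 0 of 20) lists were fixed as markers too. Alternatives were a pseudocount of 0.1, no filter, a filter at a mean of 5, quantile normalization, scaling by median of ratios, leaving out each library, the replicate number as a block and, chosen after seeing the data, removal of acinar genes and median-of-ratios scaling of the 4 numbered libraries alone. Exact permutation p-values of the ratios were computed (scipy 1.17.1) but are not given, since the members were chosen on these levels. Promoter entries were matched by symbol to RefSeq on GRCm38.p6, and positions are from GENCODE M21.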

Additional observations from a re-analysis of the deposited data

How the results depend on the processing

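Over 13 alternatives the difference of Klf2 ranged from -2.63 to -2.06 and passed in 11, that of Klf4 from -1.53 to -1.06 and passed in 10, and that of Klf5 from 0.51 to 0.92 and passed in 8. Of the 10 members, 2 were called without CD133(high)CD71(low) library 1, where 873 of 11818 genes were called. Without library 2 it was 1 (Klf2), beside 601 of 11819 genes, and without library 3 it was 4, beside 6210 of 11695. Of the other family genes 0, 0 and 1 were called in these fits. Leaving out either CD133(positive)CD71(negative) library left that group with 1 library, assumed to vary like the others. The differences without its library 1 and without its library 2 were then -2.39 and -2.26 for Klf2. They were -1.27 and -1.15 for Klf4, and 0.72 and 0.88 for Klf5. With no filter 1 of 13 other family genes was called, Klf12, beside 2687 of 16887 genes. With the replicate number as a block 5 of the 10 members and 1 other family gene were called, Klf9, Klf15 and Klf11 being added. That fit called 6817 of all 11769 genes, so nothing particular to the family is read from the added calls. Its differences equal those without library 3 (-2.06 for Klf2, -1.06 for Klf4 and 0.82 for Klf5), so these 2 alternatives are not separate checks. Nothing in the labels says that the numbers pair the libraries. The correlation of same-numbered deviations was -0.02 over 11769 genes, but with so few libraries it cannot exclude a shared mouse, sort or day. The fit with the block also keeps little freedom for the spread.

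Signs turned in 20 fits of family genes, none of them called. With median-of-ratios scaling the differences were -0.26 for Klf3, -0.0035 for Klf6, -0.058 for Klf10, -0.23 for Klf13 and -0.023 for Klf15; with the 4 numbered libraries as well, -0.15 for Klf3, -0.066 for Klf6, -0.095 for Klf10, -0.19 for Klf13, -0.022 for Sp1 and -0.18 for Sp3. Quantile normalization gave -0.24 for Klf3 and -0.19 for Klf13, and removal of acinar genes -0.081 and -0.054. With each library left out Klf3 ranged from -0.054 (without CD133(positive)CD71(negative) library 1) to 0.19, and Klf16 from -0.12 to 0.054 and Sp2 from -0.16 to 0.0032 (both highest without library 2 of that group). Klf16 was at 0.018 without library 3 and with the replicate block. The cause was not tested.

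With no pseudocount the log2 ratio differences were -2.26 for Klf4 to Klf5 (main -2.01), -3.51 for Klf2 to Klf5 (main -3.12) and -0.26 for Klf2 to the endothelial sum (main -0.016), since a pseudocount shrinks low values. With the pseudocount kept and each library left out, the differences ranged from 1.00002 to 1.24 for Klf4 to Klf2 and -2.10 to -1.88 for Klf4 to Klf5. They ranged from -3.34 to -2.88 for Klf2 to Klf5 and 0.97 to 1.29 for Klf4 to the endothelial sum. For Klf2 to that sum the range was -0.13 to 0.10, and for Klf5 to the duct sum 0.048 to 0.32.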
